A study of Mus musculus with 12 samples.

Results

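The Wnt pathway genes described here are 57 of the 53735 gene symbols in the count table of a mouse mammary gland study. They were chosen by name: every Wnt, Frizzled (Fzd), R-spondin (Rspo), Dkk and Sfrp gene of the rule, Lgr4, Lgr5 and Lgr6, and Lrp5, Lrp6, Axin2, Nkd1, Nkd2, Apcdd1, Notum, Znrf3, Rnf43, Lef1, Tcf7, Procr and Wif1. All names of the rule were in the table, 42 of the 57 genes had enough counts to be tested among 18236 tested genes, and 15 did not. Mammary epithelium was sorted by CD24 and CD49f into luminal and basal cells, and their RNA gave 12 libraries that form 4 groups of 3: luminal cells of MMTVRANK mice, luminal cells of WT mice, basal cells of MMTVRANK mice and basal cells of WT mice. MMTVRANK animals overexpress Rank, the receptor encoded by Tnfrsf11a, from a mouse mammary tumour virus promoter, which is active in mammary epithelium. Age, strain background and the number of animals behind a library are not given in the sources used here, so the p-values measure the spread between these libraries.

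Wnt proteins are secreted lipid-modified ligands that bring a Frizzled receptor and an Lrp5 or Lrp6 co-receptor together. In the canonical branch this stops the destruction of beta-catenin, which then acts on genes with the transcription factors of the TCF/LEF family. R-spondins, through the receptors Lgr4, Lgr5 and Lgr6, keep the ligases Znrf3 and Rnf43 from removing Frizzled from the cell surface. In the mouse mammary gland, Wnt4 and Rspo1 are known as products of luminal cells that act on the neighbouring basal layer, where the response is known to maintain stem cells.

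Total counts lay between 12459547 and 15069578 per library. Levels are given as CPM, counts per 1000000 scaled between libraries by TMM, and levels are compared between genes as RPKM, which divides CPM by the summed exon length in kilobases. Tnfrsf11a, the check of the genotype, stood at 319, 156 and 238 CPM in MMTVRANK luminal, 6.36, 90.8 and 9.91 in WT luminal, 415, 129 and 218 in MMTVRANK basal and 73.7, 158 and 65.3 in WT basal libraries. The libraries labelled WT luminal replicate 2 and WT basal replicate 2 held more Tnfrsf11a than the other WT libraries of their population. That puts their WT label in question. The first still lay below every MMTVRANK luminal library. The second lay above MMTVRANK basal replicate 2, at 158 against 129 CPM, which puts the MMTVRANK label of that library in question too. The cause of these levels was not tested. In the pair labelled WT replicate 2, titles and the field for cell subtype name opposite populations. By titles, which set the groups here, summed markers of basal and myoepithelial cells (14 genes) lay between 315 and 936 CPM in luminal libraries and between 26108 and 33796 CPM in basal libraries. Those of luminal cells (12 genes) lay between 8764 and 21639 CPM in luminal libraries and between 826 and 1264 CPM in basal libraries, so both populations carried the markers of their title. Calls between the genotypes are also given without that pair.

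TCF/LEF factors bind a short core word, and the 250 bases before the RefSeq starts (GRCm38.p6) were searched for CTTTG followed by 2 bases that are each A or T, on both strands. A start was matched for 37 of the 57 genes, with 45 start windows in all, of which 5 held a word (11.1%), against 4874 of 32851 windows over all genes (14.8%). The windows with a word belong to Fzd7, Wnt11, Wnt5b, Lef1 and Dkk1. Those of Fzd7, the leading basal Frizzled, and of Wnt11, a ligand with more transcript in basal cells, are shown because they hold a word, in capitals. Those of the feedback targets Axin2 and Nkd1 are shown beside them because their luminal levels are set against each other by genotype below, and neither window holds a match. All 4 windows are on the plus strand: chr1:59481897-59482146 for Fzd7, chr7:98834862-98835111 for Wnt11, chr11:108920099-108920348 for Axin2 and chr8:88527383-88527632 for Nkd1. The Nkd1 window lies within the counted Nkd1 gene, which begins at base 88521354, so the bases before that start were not searched.
Fzd7: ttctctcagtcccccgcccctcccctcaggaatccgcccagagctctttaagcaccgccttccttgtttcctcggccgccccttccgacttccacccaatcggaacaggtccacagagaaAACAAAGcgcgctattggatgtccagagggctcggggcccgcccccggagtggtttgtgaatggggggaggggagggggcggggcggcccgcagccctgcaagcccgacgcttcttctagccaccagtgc
Wnt11: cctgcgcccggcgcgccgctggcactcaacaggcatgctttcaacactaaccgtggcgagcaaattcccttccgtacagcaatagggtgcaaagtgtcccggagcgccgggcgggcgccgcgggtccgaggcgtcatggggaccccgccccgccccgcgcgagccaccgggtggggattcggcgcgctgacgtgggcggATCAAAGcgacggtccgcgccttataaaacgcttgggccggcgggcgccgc
Axin2: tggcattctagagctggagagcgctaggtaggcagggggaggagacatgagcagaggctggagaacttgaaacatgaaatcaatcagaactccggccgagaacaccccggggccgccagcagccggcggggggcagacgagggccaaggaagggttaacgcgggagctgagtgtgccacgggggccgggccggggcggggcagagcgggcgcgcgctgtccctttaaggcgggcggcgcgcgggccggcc
Nkd1: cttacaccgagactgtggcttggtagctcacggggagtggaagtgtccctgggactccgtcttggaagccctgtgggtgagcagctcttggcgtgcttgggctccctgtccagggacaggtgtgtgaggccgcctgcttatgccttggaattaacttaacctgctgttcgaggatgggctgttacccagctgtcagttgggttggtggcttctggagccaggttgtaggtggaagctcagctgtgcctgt

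Between the populations, most of the pathway stood higher in basal cells, and a small set of ligands and receptors stood higher in luminal cells. In MMTVRANK cells 28 of the 42 tested genes passed an adjusted p of 0.05 (edgeR's quasi-likelihood test, Benjamini-Hochberg adjustment over all genes), 5 higher and 23 lower in luminal cells, where 33.2% of all tested genes passed (2943 higher and 3106 lower). In WT cells 33 passed, 6 higher and 27 lower in luminal cells, where 38.1% of all tested genes passed (3284 higher and 3656 lower). The median log2 fold change of luminal over basal cells was -1.83 in MMTVRANK and -2.86 in WT cells, against 0.05 and -0.07 over all tested genes. The direction was shared by 26 genes that passed in both genotypes: 5 higher in luminal cells (Wnt4, Wnt7b, Rspo1, Fzd4 and Fzd6) and 21 lower. In sorted bulk RNA, fewer cells of a type and less RNA per cell cannot be told apart.

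Markers of other cell types moved with the same contrast. In luminal cells, fibroblast markers were lower for 2 of 12 tested genes in MMTVRANK and 10 of 12 in WT, endothelial markers for 8 of 10 in each genotype, pericyte markers for 3 of 8 and 7 of 8, and nerve and glial markers for 4 of 7 and 6 of 7. Higher in luminal cells were 1 fibroblast marker in WT, and 1 endothelial and 1 pericyte marker in each genotype. Summed fibroblast markers were 370.4 to 506 CPM in MMTVRANK luminal, 421 to 543 in WT luminal, 750.3 to 772 in MMTVRANK basal and 428 to 3457 in WT basal libraries. Summed nerve and glial markers were 110.2 to 188 CPM in MMTVRANK luminal, 116 to 169 in WT luminal, 373 to 648 in MMTVRANK basal and 565 to 1123 in WT basal libraries. Summed endothelial and pericyte markers lay at 147 to 268 and 190.3 to 230.4 CPM in MMTVRANK luminal, 148 to 268 and 220.2 to 270.0 in WT luminal, 118 to 341 and 89.1 to 145 in MMTVRANK basal, and 172 to 409 and 116 to 261 in WT basal libraries. Vwf made up most of the endothelial sum in every luminal library, at 92.9 to 244 CPM, against 6.58 to 12.2 CPM in basal libraries. Notch3 likewise led the luminal pericyte sums, at 149 to 242 CPM, against 2.11 to 29.2 CPM in basal libraries. Col6a3 held 83.7 to 425 CPM of the luminal fibroblast sums and 45.1 to 188 CPM of the basal ones. Of these 4 lists, 1 pericyte marker was at 0 in all 3 WT luminal libraries and no other marker was at 0 throughout a group. The part of these cells in the Wnt pathway values was not tested.

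**Figure D1:**
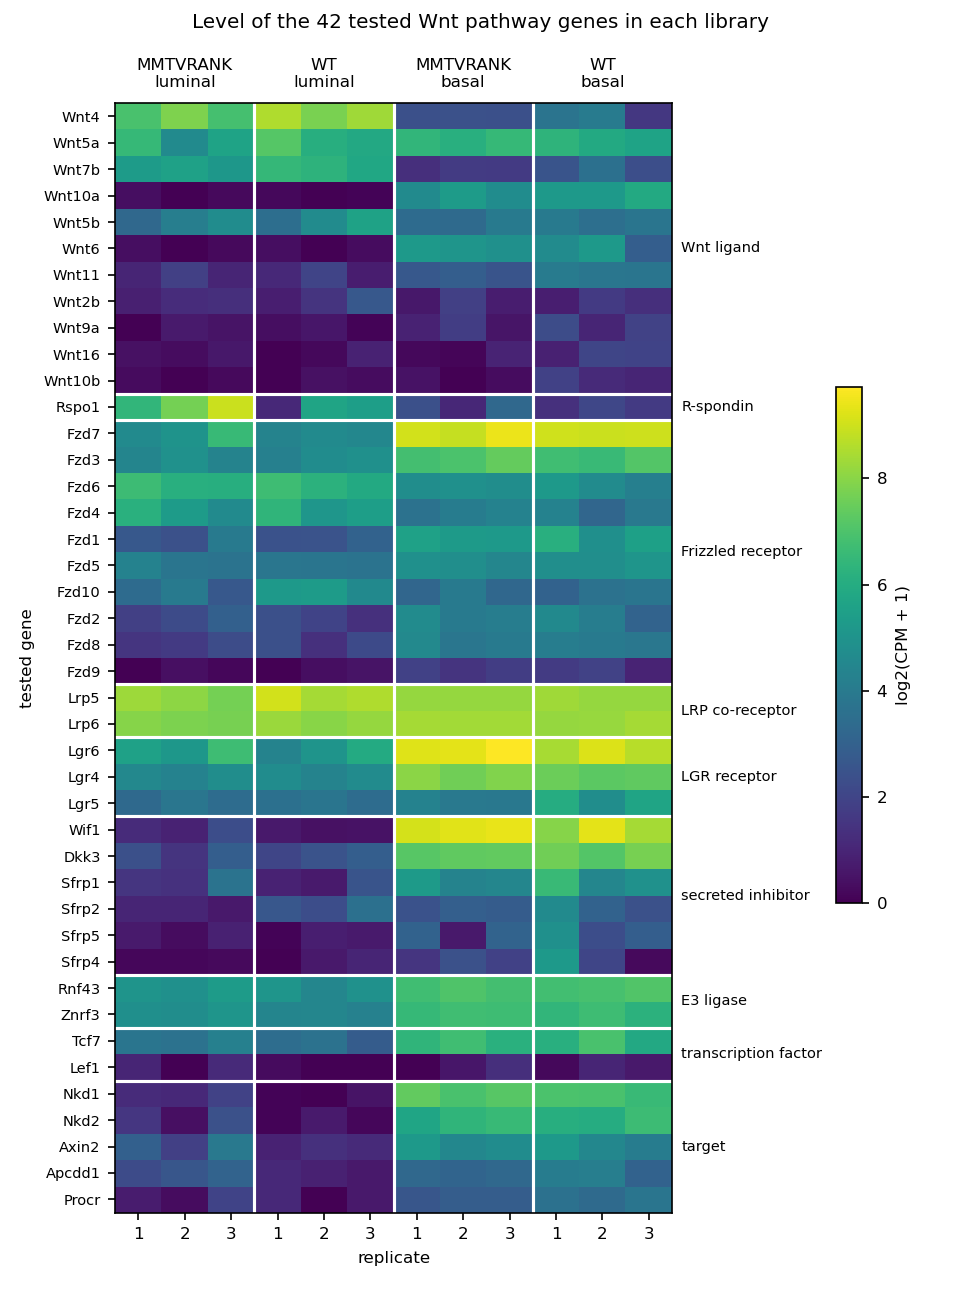
Level of the 42 tested Wnt pathway genes (rows, grouped by role) in each of the 12 libraries (columns, 3 per group), as log2(CPM + 1) in colour. Wnt4, Wnt7b and Rspo1 are brightest in luminal libraries, while Fzd7, Lgr6, Wif1 and Nkd1 are brightest in basal libraries.

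Ligands were split between the populations. Wnt4, the progesterone-responsive ligand of the mammary gland, stood at 122, 226 and 114 CPM in MMTVRANK luminal, 382, 215 and 319 in WT luminal, 4.24, 4.3 and 4.15 in MMTVRANK basal and 12.3, 15.7 and 1.97 in WT basal libraries. Every luminal library lay far above every basal library, with a log2 fold change of 5.18 ± 0.63 (SE) in MMTVRANK and 4.93 ± 0.62 in WT cells (adjusted p 1.05e-04 and 1.15e-04). Wnt7b stood at 39.6, 46.4 and 34.2 CPM in MMTVRANK luminal, 88.2, 77.4 and 54.7 in WT luminal, 1.51, 2.19 and 2.12 in MMTVRANK basal and 4.79, 11 and 4.02 in WT basal libraries. It was higher in luminal cells by 4.37 ± 0.39 in MMTVRANK and 3.47 ± 0.36 in WT cells on the log2 scale. Without the library labelled WT basal replicate 2 the WT value of Wnt7b was 4.06, and without both libraries labelled WT replicate 2 that of Wnt4 was 5.62.

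Wnt6 and Wnt10a, neighbours on chromosome 1 with 6193 bases between them on the same strand, were basal ligands. Wnt6 stood at 0.272, 0 and 0.176 CPM in MMTVRANK luminal, 0.299, 0 and 0.254 in WT luminal, 37.6, 32.8 and 28.7 in MMTVRANK basal and 24.6, 36.7 and 6.59 in WT basal libraries. Wnt10a stood at 0.272, 0 and 0.176 CPM in MMTVRANK luminal, 0.15, 0 and 0.0635 in WT luminal, 24.4, 39.3 and 25.9 in MMTVRANK basal and 37.6, 36 and 59.3 in WT basal libraries. Both were near 0 in all 6 luminal libraries, and WT basal replicate 3 was the lowest basal library for Wnt6. The log2 fold change of luminal over basal cells was -7.72 ± 0.89 and -6.87 ± 0.87 for Wnt6 in MMTVRANK and WT cells, and -7.57 ± 0.60 and -9.14 ± 0.67 for Wnt10a in MMTVRANK and WT cells (adjusted p 9.22e-05 or lower). Without MMTVRANK luminal replicate 1 the MMTVRANK values were -8.37 for Wnt6 and -8.22 for Wnt10a. The WT value was -10.02 for Wnt10a without WT luminal replicate 1 and -5.77 for Wnt6 without both libraries labelled WT replicate 2, and each of these calls held. In WT cells Wnt10a had 3 counts over the luminal libraries and 1679 over the basal ones, a basal level 628 times the luminal one, with an exact 95% interval of 214 to 3048 that covers counting error only.

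Wnt11, a ligand known for signalling outside the canonical branch, stood at 1.02, 2.62 and 0.996 CPM in MMTVRANK luminal, 1.2, 2.98 and 0.699 in WT luminal, 5.45, 6.58 and 4.78 in MMTVRANK basal and 15.5, 13 and 12.8 in WT basal libraries. It was lower in luminal cells of both genotypes (-1.85 ± 0.55 in MMTVRANK and -3.08 ± 0.57 in WT cells). In MMTVRANK cells that call was lost without MMTVRANK luminal replicate 1 (-1.63, adjusted p 0.0817) or 3 (-1.61, 0.0696), or without MMTVRANK basal replicate 2 (-1.72, 0.0633). It held at -2.465 without MMTVRANK luminal replicate 2, and the WT call held at -3.84 without WT luminal replicate 2 and at -3.88 without both libraries labelled WT replicate 2. Wnt9a was low throughout, at 0, 0.639 and 0.41 CPM in MMTVRANK luminal, 0.299, 0.497 and 0.0635 in WT luminal, 0.908, 2.36 and 0.47 in MMTVRANK basal and 3.79, 1.01 and 2.82 in WT basal libraries, and passed in WT cells alone (-3.12 ± 1.16, adjusted p 0.0497). That call was lost, at log2 fold changes of -3.75 to -2.63 and adjusted p of 0.0584 to 0.134, when any 1 library other than MMTVRANK luminal replicate 1 or WT basal replicate 2 was left out, with upper-quartile scaling (-3.13, 0.0515) and with the compared groups alone (-3.13, 0.0535).

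The other 5 tested ligands passed in neither genotype. Wnt5a, the best known ligand of the branch without beta-catenin, lay between 24.4 and 142 CPM in luminal libraries and between 49.0 and 89.5 CPM in basal libraries, so the populations overlapped. Wnt5b lay between 8.71 and 47.1 CPM in luminal libraries and between 9.27 and 15.0 CPM in basal libraries. Wnt2b, Wnt16 and Wnt10b stayed at or below 5.34 CPM in every library. Without WT luminal replicate 1, Wnt5b was higher in WT luminal cells (1.502, adjusted p 0.0181), and without WT luminal replicate 3, Wnt16 was lower in them (-4.82, 0.0286). With the replicate number as a block, Wnt16 was lower in WT luminal cells as well (-3.32, adjusted p 0.0328).

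Per length, the summed RPKM of the 19 Wnt genes was 53.0, 74.4 and 51.0 in MMTVRANK luminal, 132, 86.3 and 114 in WT luminal, 44.8, 48.1 and 44.4 in MMTVRANK basal and 53.3, 57.2 and 46.1 in WT basal libraries. Every MMTVRANK luminal library lay below every WT luminal library, a difference that was not tested. Wnt4 held 53.1% to 72.5% of this sum in MMTVRANK luminal and 59.2% to 69.1% in WT luminal libraries. In basal libraries Wnt4 held 2.13% to 2.25% in MMTVRANK and 1.02% to 6.54% in WT. There Wnt6 held 29.4% to 38.2% in MMTVRANK and 6.52% to 29.3% in WT, and Wnt10a held 22.0% to 33.1% in MMTVRANK and 25.5% to 52.1% in WT. Wnt5a made up another 18.6% to 25.8% in MMTVRANK basal and 13.2% to 18.8% in WT basal libraries.

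**Figure D2:**
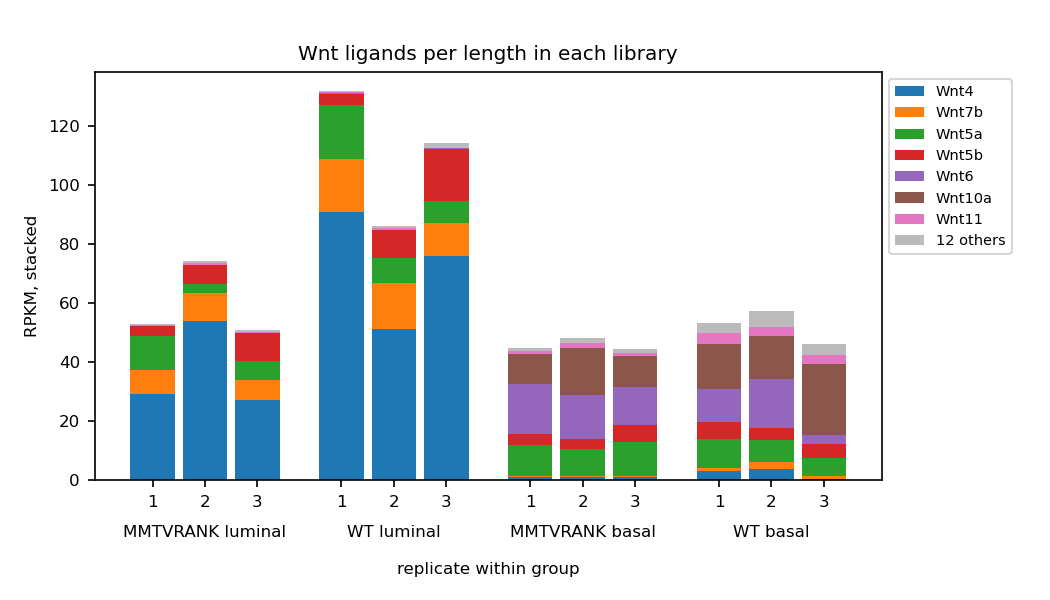
Stacked RPKM of the Wnt ligands in each library, with 7 ligands in colour and the other Wnt genes in grey. Wnt4 fills most of each luminal bar, and Wnt6, Wnt10a and Wnt5a fill most of each basal bar.

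Among the R-spondins, the ligands of the LGR receptors, only Rspo1 had enough counts to be tested. Rspo1 stood at 83, 206 and 489.7 CPM in MMTVRANK luminal, 1.2, 50.1 and 42.5 in WT luminal, 4.24, 1.1 and 8.77 in MMTVRANK basal and 1.55, 3.17 and 2.14 in WT basal libraries. It was higher in luminal cells by 5.78 ± 1.21 in MMTVRANK and 3.76 ± 1.15 in WT cells on the log2 scale (adjusted p 0.00373 and 0.0248), although WT luminal replicate 1 lay as low as the basal libraries. Its share of the summed R-spondin RPKM was 99.8% or more in each MMTVRANK luminal library and 96.2% or more in each WT luminal library. The WT call was lost, at 3.26 to 4.09 and adjusted p of 0.0531 to 0.0790, without any 1 WT library other than WT luminal replicate 1, and with limma-voom (2.72, 0.399). The MMTVRANK call held at 4.95 without MMTVRANK luminal replicate 3 and at 6.59 without MMTVRANK basal replicate 3.

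The Frizzled receptors fell into a basal set and a luminal set. Fzd7, reported in mouse mammary stem cells, stood at 24, 30.8 and 92.6 CPM in MMTVRANK luminal, 19.2, 24.5 and 21.5 in WT luminal, 529, 468 and 695 in MMTVRANK basal and 522, 489 and 511 in WT basal libraries. Basal levels overlapped between the genotypes, and MMTVRANK luminal replicate 3 was the highest luminal library. Fzd3, a receptor known from planar polarity, stood at 20.6, 29.2 and 19.6 CPM in MMTVRANK luminal, 17.6, 25.4 and 28.1 in WT luminal, 113, 123 and 172 in MMTVRANK basal and 105, 95.7 and 139 in WT basal libraries. Fzd1 stood at 5.45, 4.28 and 15.2 CPM in MMTVRANK luminal, 4.42, 4.68 and 7.31 in WT luminal, 46.9, 38.4 and 36.9 in MMTVRANK basal and 70.1, 27.9 and 45.6 in WT basal libraries. No luminal library reached a basal library of its genotype for these 3 receptors, and the log2 fold changes of luminal over basal cells were -3.52 ± 0.44, -2.55 ± 0.25 and -2.29 ± 0.47 in MMTVRANK and -4.54 ± 0.46, -2.25 ± 0.25 and -3.13 ± 0.48 in WT cells. Without MMTVRANK luminal replicate 3 the MMTVRANK values were -4.36 for Fzd7 and -3.06 for Fzd1.

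Fzd2 stood at 2.59, 3.64 and 6.97 CPM in MMTVRANK luminal, 4.19, 2.84 and 1.52 in WT luminal, 24.7, 15.2 and 16.2 in MMTVRANK basal and 23.8, 16.3 and 7.53 in WT basal libraries. Fzd8 stood at 1.84, 2.17 and 3.81 CPM in MMTVRANK luminal, 4.19, 1.56 and 3.49 in WT luminal, 22.8, 13.2 and 15.3 in MMTVRANK basal and 16.5, 14.8 and 13.5 in WT basal libraries. Both receptors were lower in every luminal library than in any basal library of the same genotype, with log2 fold changes of -2.08 ± 0.51 and -2.70 ± 0.42 in MMTVRANK and -2.48 ± 0.52 and -2.27 ± 0.42 in WT cells. Fzd5 had the smallest difference among the Frizzled genes that passed in both genotypes, at 19, 12.8 and 12 CPM in MMTVRANK luminal, 12.9, 12.7 and 11.9 in WT luminal, 28.7, 26.7 and 20.8 in MMTVRANK basal and 27.1, 26.6 and 32.9 in WT basal libraries. Its log2 fold change was -0.80 ± 0.22 in MMTVRANK and -1.20 ± 0.23 in WT cells, and the MMTVRANK call was lost without MMTVRANK luminal replicate 2 (-0.71, adjusted p 0.0771) or 3 (-0.68, 0.0697) or MMTVRANK basal replicate 1 (-0.70, 0.0716) or 2 (-0.76, 0.0526), and with no filter on low counts (-0.78, 0.0857). Fzd9 stayed low, at 0, 0.32 and 0.117 CPM in MMTVRANK luminal, 0, 0.284 and 0.445 in WT luminal, 2.65, 1.77 and 2.43 in MMTVRANK basal and 2.24, 2.81 and 0.941 in WT basal libraries. Its calls (-3.88 ± 1.14 in MMTVRANK and -2.98 ± 1.09 in WT cells) had few counts behind them. The MMTVRANK one was lost without MMTVRANK luminal replicate 1 (-3.34, adjusted p 0.0629) or 3 (-3.74, 0.0609) or MMTVRANK basal replicate 1 (-3.76, 0.0525), and held at -5.03 without MMTVRANK luminal replicate 2. The WT one was lost with the replicate block (-3.09, adjusted p 0.0519), upper-quartile scaling (-2.96, 0.0506) or the compared groups alone (-2.99, 0.0980), and without any 1 library other than MMTVRANK luminal replicate 1 or 2 or WT basal replicate 3 (-3.72 to -2.42, adjusted p 0.0515 to 0.112).

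Fzd6 and Fzd4 were the Frizzled genes higher in luminal cells of both genotypes. Fzd6 is known to hold back canonical signalling in some settings. Fzd4 is known as the receptor of Norrin in blood vessels of the retina. Fzd6 stood at 99.7, 69.2 and 68.2 CPM in MMTVRANK luminal, 104, 74 and 59.3 in WT luminal, 26.1, 28.4 and 26 in MMTVRANK basal and 37.7, 24.8 and 17.2 in WT basal libraries. Fzd4 stood at 70.2, 39.5 and 23.8 CPM in MMTVRANK luminal, 80.4, 33.7 and 42.4 in WT luminal, 11.7, 16.1 and 19 in MMTVRANK basal and 19, 8.14 and 14.4 in WT basal libraries. All luminal libraries lay above the basal libraries of their genotype, by 1.56 ± 0.29 and 1.51 ± 0.45 in MMTVRANK and 1.57 ± 0.29 and 1.91 ± 0.45 in WT cells. The MMTVRANK call of Fzd4 was lost without MMTVRANK luminal replicate 1 (1.02, adjusted p 0.108) or MMTVRANK basal replicate 1 (1.35, 0.0849) or 2 (1.54, 0.0645).

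Fzd10 differed in pattern. It stood at 9.6, 14.8 and 5.39 CPM in MMTVRANK luminal, 37, 39.6 and 23.4 in WT luminal, 8.17, 14.5 and 8.38 in MMTVRANK basal and 7.27, 11.7 and 12.7 in WT basal libraries. WT luminal libraries were the highest of the 4 groups, and the other 3 groups overlapped. Luminal cells were higher in WT (1.66 ± 0.39, adjusted p 0.00509), while in MMTVRANK cells the log2 fold change was -0.06 ± 0.38 (adjusted p 0.923). The difference between these effects was -1.72 ± 0.55 (adjusted p 0.490) and did not pass.

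The sum of the 10 Frizzled RPKM was 46.3, 38.5 and 49.8 in MMTVRANK luminal, 56.0, 44.3 and 37.9 in WT luminal, 165, 148 and 199 in MMTVRANK basal and 169, 146 and 155 in WT basal libraries. Fzd7 held 70.03% to 76.9% of it in MMTVRANK basal and 68.0% to 74.0% in WT basal libraries. Its luminal share was 11.4% to 41.0% in MMTVRANK and 7.59% to 12.5% in WT, below Fzd6 in every luminal library except MMTVRANK luminal replicate 3. Fzd6 held 28.5% to 44.7% in MMTVRANK luminal and 32.5% to 38.7% in WT luminal libraries. Fzd4 held 7.13% to 22.6% in MMTVRANK and 11.3% to 21.4% in WT luminal libraries. The share of Fzd10 was 3.33% to 11.8% in MMTVRANK and 19.0% to 27.5% in WT luminal libraries.

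Both co-receptors had high levels in both populations. Lrp5 stood at 317, 270.1 and 207 CPM in MMTVRANK luminal, 526, 340.0 and 378 in WT luminal, 289, 292 and 289 in MMTVRANK basal and 325, 292 and 287 in WT basal libraries. Lrp6 stood at 245, 220.2 and 209 CPM in MMTVRANK luminal, 305, 252 and 294 in WT luminal, 337, 329 and 327 in MMTVRANK basal and 292, 295 and 341 in WT basal libraries. Over all 12 libraries Lrp5 lay between 207 and 526 CPM and Lrp6 between 209 and 341 CPM. Lrp6 was lower in luminal cells of MMTVRANK mice (-0.56 ± 0.13, adjusted p 0.00636) and did not pass in WT cells, and the difference between these effects was -0.44 ± 0.19 (adjusted p 0.626). The MMTVRANK call of Lrp6 was lost with no filter on low counts (-0.54, adjusted p 0.0779). Lrp5 passed in neither genotype, and in WT cells it passed without WT luminal replicate 2 (0.60, adjusted p 0.0421) and with the replicate block (0.44, 0.0459).

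The LGR receptors, which bind R-spondins, were basal. Lgr6 stood at 46.2, 34.8 and 104 CPM in MMTVRANK luminal, 19.4, 31.4 and 61 in WT luminal, 604, 634 and 844 in MMTVRANK basal and 353, 588 and 405 in WT basal libraries. Lgr4 stood at 22.2, 18.7 and 26.3 CPM in MMTVRANK luminal, 25.5, 19.2 and 24.8 in WT luminal, 258, 192 and 235 in MMTVRANK basal and 183, 153 and 161 in WT basal libraries. Every basal library lay above every luminal library for both, with log2 fold changes of -3.49 ± 0.49 and -3.35 ± 0.19 in MMTVRANK and -3.59 ± 0.50 and -2.83 ± 0.19 in WT cells. Without MMTVRANK luminal replicate 3 the MMTVRANK value of Lgr6 was -4.10. Lgr5, a stem cell marker of the intestine that also marks basal mammary cells in the mouse, stood at 8.92, 13 and 9.78 CPM in MMTVRANK luminal, 11.1, 12.6 and 9.72 in WT luminal, 18.8, 14.3 and 13.8 in MMTVRANK basal and 63.9, 25.9 and 49.8 in WT basal libraries. WT basal libraries were the highest and MMTVRANK basal libraries lay closer to the luminal ones. Luminal cells were lower in WT (-2.06 ± 0.31, adjusted p 2.55e-04), and in MMTVRANK cells the value was -0.56 ± 0.30 (adjusted p 0.179), with a difference between these effects of 1.498 ± 0.43 (adjusted p 0.438). Per length, Lgr6 was the leading LGR receptor in each basal library, with 65.9% to 74.9% of their summed RPKM in MMTVRANK and 58.0% to 75.1% in WT.

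**Figure D3:**
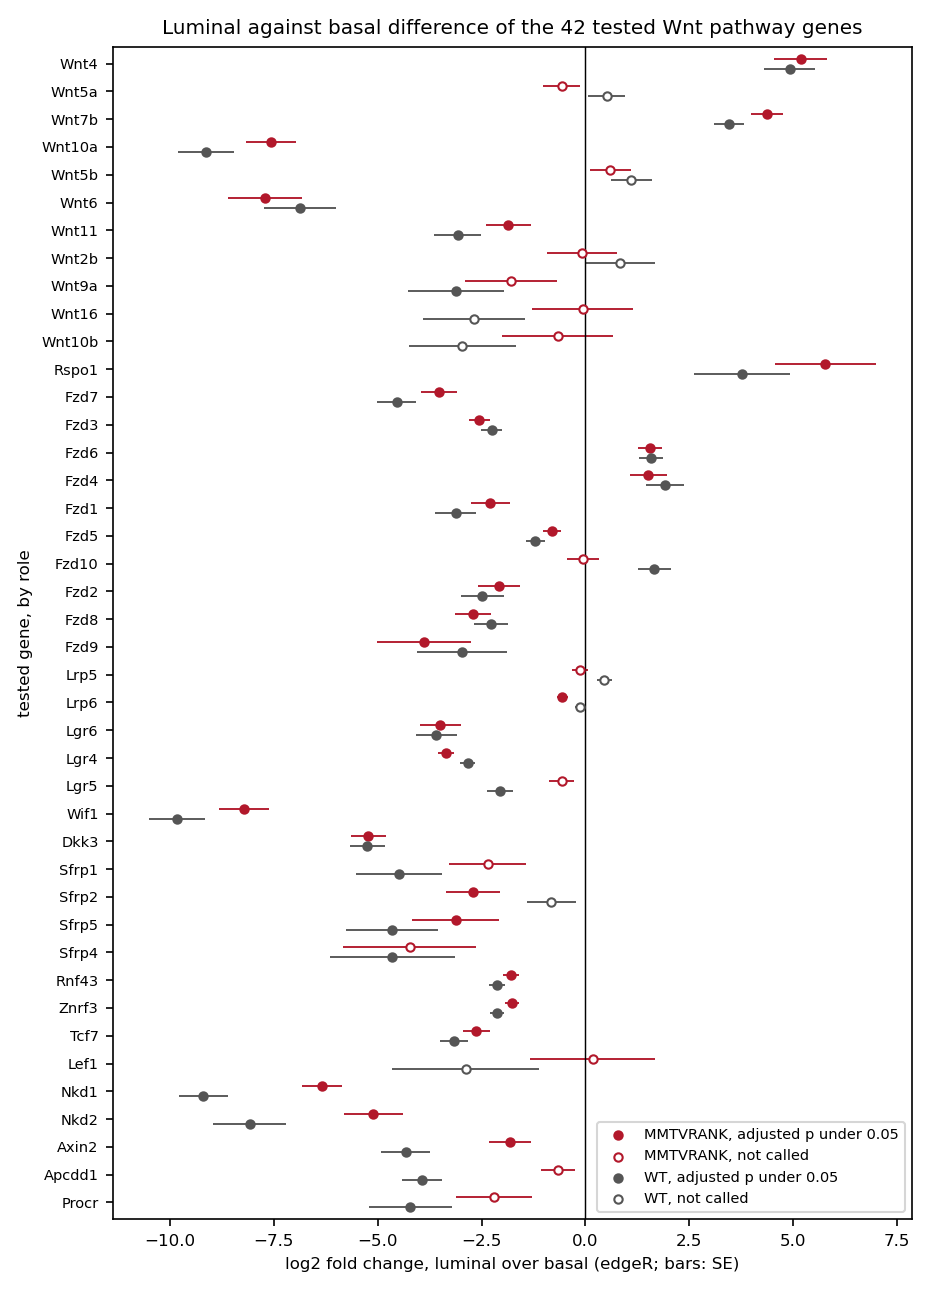
Log2 fold change of luminal over basal cells (edgeR, with SE bars) for the 42 tested Wnt pathway genes, in MMTVRANK cells (red) and WT cells (grey). Filled points passed an adjusted p of 0.05: 28 genes in MMTVRANK and 33 in WT cells (open points did not), with Wnt4, Wnt7b, Rspo1, Fzd6 and Fzd4 to the right of 0 in both.

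Of the secreted inhibitors, Wif1, which binds Wnt proteins directly, had the largest gap between the populations. Wif1 stood at 1.29, 0.895 and 3.92 CPM in MMTVRANK luminal, 0.599, 0.355 and 0.381 in WT luminal, 543, 627 and 675 in MMTVRANK basal and 249, 642 and 338 in WT basal libraries. Dkk3, a divergent Dkk family member, stood at 4.22, 1.79 and 6.5 CPM in MMTVRANK luminal, 3.07, 4.68 and 6.48 in WT luminal, 144, 161 and 165 in MMTVRANK basal and 197, 137 and 209.7 in WT basal libraries. Both were high in all 6 basal libraries and low in all 6 luminal ones, with log2 fold changes of -8.21 ± 0.59 and -5.22 ± 0.42 in MMTVRANK and -9.83 ± 0.67 and -5.25 ± 0.42 in WT cells. For Wif1 the MMTVRANK value was -9.12 without MMTVRANK luminal replicate 3, and the WT value was -9.21 without both libraries labelled WT replicate 2. The Sfrp genes encode secreted proteins with a Frizzled-like domain that bind Wnts. Sfrp1 stood at 1.84, 1.6 and 12 CPM in MMTVRANK luminal, 0.898, 0.638 and 4.76 in WT luminal, 38.6, 19.5 and 21 in MMTVRANK basal and 95, 20.8 and 28.9 in WT basal libraries. Sfrp2 stood at 1.02, 1.02 and 0.586 CPM in MMTVRANK luminal, 5.24, 3.97 and 11.1 in WT luminal, 4.46, 6.66 and 6.03 in MMTVRANK basal and 24.1, 7.35 and 4.36 in WT basal libraries. Sfrp1 was highest in WT basal replicate 1, and Sfrp2 was lowest in the MMTVRANK luminal libraries. Sfrp4 stood at 0.136, 0.128 and 0.176 CPM in MMTVRANK luminal, 0, 0.568 and 1.02 in WT luminal, 1.82, 4.3 and 2.66 in MMTVRANK basal and 37.7, 3.1 and 0.171 in WT basal libraries. Sfrp5 stood at 0.613, 0.256 and 0.879 CPM in MMTVRANK luminal, 0.0748, 0.78 and 0.635 in WT luminal, 7.26, 0.59 and 7.6 in MMTVRANK basal and 28.1, 3.89 and 6.5 in WT basal libraries. For both genes WT basal replicate 1 was the highest library.

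In luminal cells Sfrp1 was lower in WT (-4.50 ± 1.04, adjusted p 0.00574), Sfrp2 was lower in MMTVRANK (-2.70 ± 0.65, 0.00682), Sfrp4 was lower in WT (-4.65 ± 1.501, 0.0304) and Sfrp5 was lower in both (-3.12 ± 1.05, 0.0375 in MMTVRANK and -4.66 ± 1.11, 0.00594 in WT). WT basal replicate 1 also held 3457 CPM of the 12 fibroblast markers, against 428 to 772 CPM in the other basal libraries, with no marker at 0 in all 3 WT basal libraries, and their part in the Sfrp values was not tested. Without that library the WT values were -3.53 for Sfrp1 (adjusted p 0.0208), -3.34 for Sfrp5 (0.0266) and -1.60 for Sfrp4 (0.332), and Sfrp4 stood at -3.93 with the replicate block (0.140), -3.40 with limma-voom (0.232) and -4.65 with the compared groups alone (0.0721). The WT calls of Sfrp1 and Sfrp5 also held at -5.94 for Sfrp1 without WT luminal replicate 3 and at -5.53 for Sfrp5 without both libraries labelled WT replicate 2. The Sfrp4 call in WT was also lost without WT luminal replicate 1 (-4.08, adjusted p 0.0837), 2 (-4.68, 0.0884) or 3 (-5.52, 0.0520), and in MMTVRANK cells Sfrp4 passed without WT basal replicate 1 (-4.23, 0.0234) or 3 (-4.23, 0.0157). The Sfrp5 call in MMTVRANK was lost without any 1 MMTVRANK library other than basal replicate 2 (-3.54 to -2.74, adjusted p 0.0579 to 0.124), and with limma-voom (-2.62, 0.223). Sfrp1 passed in MMTVRANK cells without MMTVRANK luminal replicate 3 (-3.93, 0.0139) and with the block (-2.79, 0.0328).

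Znrf3 and Rnf43, the ligases that clear Frizzled receptors and are themselves targets of the pathway, were lower in luminal cells. Znrf3 stood at 28, 25.9 and 32.8 CPM in MMTVRANK luminal, 20.3, 20.9 and 18.3 in WT luminal, 89.5, 105 and 103 in MMTVRANK basal and 83, 103 and 74 in WT basal libraries. Rnf43 stood at 32, 28.6 and 39.7 CPM in MMTVRANK luminal, 32.2, 21.1 and 29.1 in WT luminal, 107, 129.6 and 111 in MMTVRANK basal and 109, 118 and 135 in WT basal libraries. The basal libraries lay above the luminal ones without overlap, with log2 fold changes of -1.77 ± 0.17 and -1.79 ± 0.19 in MMTVRANK and -2.13 ± 0.17 and -2.13 ± 0.19 in WT cells. Tcf7, a TCF/LEF transcription factor, stood at 12.7, 11.6 and 17.6 CPM in MMTVRANK luminal, 10.2, 11.6 and 6.04 in WT luminal, 81.1, 105 and 71.7 in MMTVRANK basal and 68.7, 122 and 57.9 in WT basal libraries. It was lower in luminal cells of both genotypes (-2.62 ± 0.33 in MMTVRANK and -3.16 ± 0.33 in WT cells). Lef1, the other factor of the rule, stayed at or below 1.49 CPM in every library and passed in neither genotype.

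Axin2, Nkd1, Nkd2, Apcdd1 and Procr form the group of targets and feedback genes. In MMTVRANK cells 3 of the 5 passed, each with luminal cells lower (33.2% of all tested genes passed in either direction), and in WT cells 5 of 5 did (38.1%). All 5 log2 fold changes were negative in each genotype. Axin2, a scaffold of the complex that destroys beta-catenin and a general target of the pathway, stood at 6.81, 2.62 and 14.4 CPM in MMTVRANK luminal, 0.898, 1.56 and 1.21 in WT luminal, 36.6, 21.5 and 25.5 in MMTVRANK basal and 36.3, 21.9 and 15.9 in WT basal libraries. MMTVRANK luminal replicate 3 reached close to the lowest basal library, while the 3 WT luminal libraries lay below 2 CPM. Nkd1 and Nkd2 are feedback inhibitors that bind Dishevelled. Nkd1 stood at 1.29, 1.15 and 2.81 CPM in MMTVRANK luminal, 0.0748, 0 and 0.445 in WT luminal, 165, 119.6 and 147 in MMTVRANK basal and 125, 119.6 and 94 in WT basal libraries. Nkd2 stood at 1.91, 0.32 and 4.28 CPM in MMTVRANK luminal, 0.0748, 0.638 and 0.127 in WT luminal, 51.4, 80.7 and 93.9 in MMTVRANK basal and 67.9, 63.7 and 102 in WT basal libraries. Luminal levels of both were at or below 4.28 CPM, and basal levels were 51.4 CPM or higher. The log2 fold changes of luminal over basal cells were -1.81 ± 0.51, -6.34 ± 0.47 and -5.10 ± 0.70 in MMTVRANK and -4.33 ± 0.59, -9.20 ± 0.59 and -8.08 ± 0.87 in WT cells for Axin2, Nkd1 and Nkd2. The MMTVRANK call of Axin2 was lost without MMTVRANK luminal replicate 1 (-1.72, adjusted p 0.0589) or MMTVRANK basal replicate 1 (-1.56, 0.0612). Without MMTVRANK luminal replicate 3 the MMTVRANK values were -2.56 for Axin2 and -6.08 for Nkd2. The WT value of Nkd1 was -11.27 without WT luminal replicate 3 and -8.60 without both libraries labelled WT replicate 2, and that of Nkd2 was -9.43 without WT luminal replicate 2 and -9.56 without that pair.

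Apcdd1, a membrane protein that inhibits Wnt signalling and is a reported target of it in human colon cancer cells, stood at 3.61, 5.11 and 7.44 CPM in MMTVRANK luminal, 1.2, 0.851 and 0.572 in WT luminal, 8.85, 7.84 and 8.85 in MMTVRANK basal and 16.1, 16.9 and 7.36 in WT basal libraries. In WT cells luminal libraries lay far below basal ones (-3.94 ± 0.47, adjusted p 4.80e-05), and in MMTVRANK cells the value was -0.66 ± 0.41 (adjusted p 0.254), although no MMTVRANK luminal library reached an MMTVRANK basal one. Procr, a receptor reported as a Wnt target of mouse mammary stem cells, stood at 0.681, 0.256 and 2.87 CPM in MMTVRANK luminal, 1.2, 0 and 0.572 in WT luminal, 4.99, 6.32 and 6.35 in MMTVRANK basal and 11.4, 9.22 and 12.6 in WT basal libraries. It was lower in luminal cells of WT mice (-4.22 ± 1.00, adjusted p 0.00544), and in MMTVRANK cells it stood at -2.20 ± 0.91 (adjusted p 0.0833). The WT call held at -5.19 without WT luminal replicate 1 and at -3.63 without WT luminal replicate 2. Procr passed in MMTVRANK cells without MMTVRANK luminal replicate 3 (-3.63, adjusted p 0.0143) or the library labelled WT luminal replicate 2 (-2.19, 0.0335), without both libraries labelled WT replicate 2 (-2.19, 0.0439), and with the replicate block (-2.60, 0.0399).

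MMTVRANK against WT luminal cells sets the genotypes side by side within the luminal population, where 46 of all tested genes (0.252%) passed. Of the 42 Wnt pathway genes 1, Apcdd1, passed, and it rose (0.0932% of all tested genes did). Mean levels of Apcdd1 were 5.39 ± 1.93 CPM in MMTVRANK and 0.873 ± 0.313 CPM in WT luminal cells (SD, n = 3 each), a log2 fold change of 2.62 ± 0.46 (adjusted p 0.0457). All 3 MMTVRANK libraries lay above all 3 WT libraries. The call is close to the threshold: it was lost, at 2.27 to 2.91 and adjusted p of 0.0613 to 0.139, without any 1 library other than MMTVRANK luminal replicate 1 or WT basal replicate 2 or 3, with limma-voom (2.62, 0.150) and with the compared groups alone (2.61, 0.117). Without both libraries labelled WT replicate 2 the value was 2.605 (adjusted p 0.0888), and no Wnt pathway gene passed, among 81 genes that did.

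The other targets stood on the same side without passing in edgeR's test, and DESeq2 called 3 of them (Axin2, Nkd1 and Nkd2, all higher). Axin2 averaged 7.93 ± 5.95 CPM in MMTVRANK and 1.22 ± 0.332 CPM in WT luminal cells (2.69 ± 0.56, adjusted p 0.0756). Nkd1 averaged 1.75 ± 0.921 CPM in MMTVRANK and 0.173 ± 0.238 CPM in WT luminal cells (3.21 ± 0.63, adjusted p 0.0720). For both genes the genotypes did not overlap. Nkd2 averaged 2.17 ± 1.99 CPM in MMTVRANK and 0.28 ± 0.311 CPM in WT luminal cells (2.93 ± 0.88, adjusted p 0.191), where MMTVRANK replicate 2 lay within the WT range. All 5 genes of the target group, Procr included, had positive log2 fold changes, with a median of 2.69 against 0.03 over all tested genes, and that of Procr turned to -0.38 without MMTVRANK luminal replicate 3. Without both libraries labelled WT replicate 2 Axin2 stood at 2.90 (adjusted p 0.137). Axin2 passed without MMTVRANK luminal replicate 2 (3.06, adjusted p 0.0341), and Nkd1 passed without WT luminal replicate 3 (5.24, 0.0366).

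**Figure D4:**
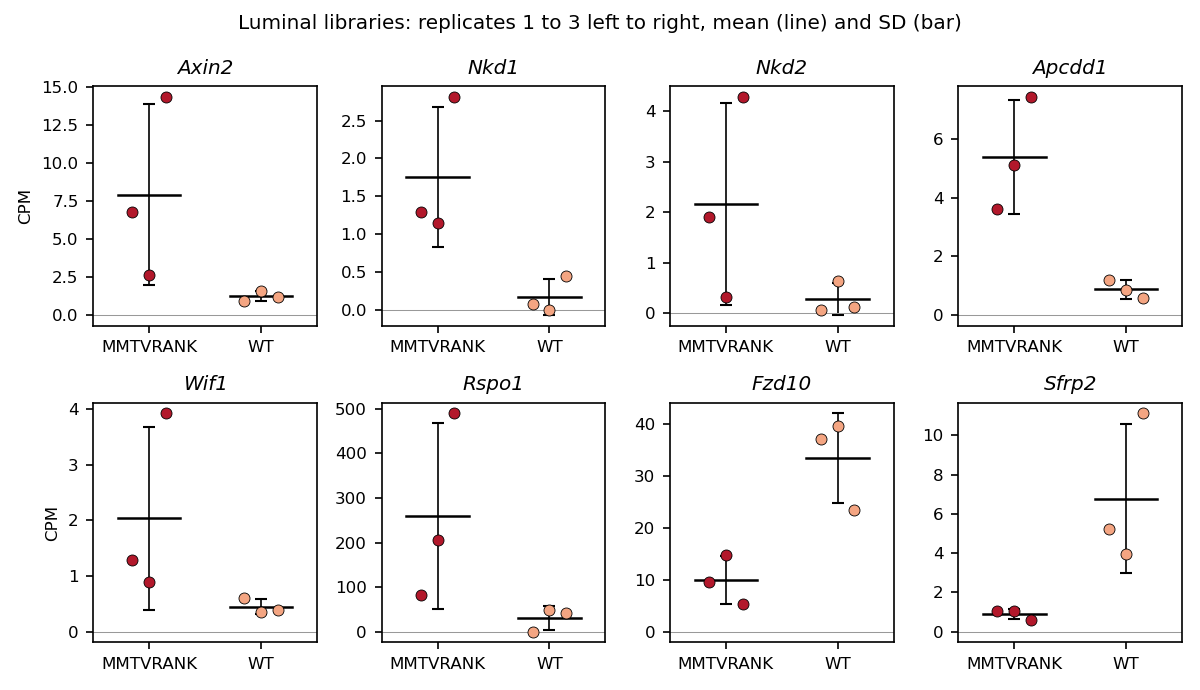
CPM of 8 Wnt pathway genes in the luminal libraries of MMTVRANK and WT mice, 1 point per library, with the mean as a line and the SD as a bar; each panel has its own axis from about 0. Apcdd1, Axin2, Nkd1, Wif1 and Rspo1 are higher in all 3 MMTVRANK libraries, Fzd10 and Sfrp2 are lower in all 3, and Nkd2 overlaps.

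Ligands, receptors, ligases, transcription factors and inhibitors gave no call in that comparison in edgeR's test. An unadjusted p under 0.05 was found for 13 of the 42 genes, 4 of them targets, and for 2183 of all 18236 tested genes (12%), and DESeq2 also called Wif1 as higher and Fzd10, Lrp5 and Sfrp2 as lower. With no filter on low counts 13 genes passed, Rspo1, Fzd7, Lgr6, Sfrp1, Wnt4 and Wnt7b besides Apcdd1, Axin2, Nkd1, Nkd2, Wif1, Fzd10 and Sfrp2. Rspo1 averaged 259.7 ± 209 CPM in MMTVRANK and 31.3 ± 26.3 CPM in WT luminal cells, with all 3 MMTVRANK libraries above the WT ones (3.05 ± 1.05, adjusted p 0.250). Wif1 averaged 2.04 ± 1.65 CPM in MMTVRANK and 0.445 ± 0.134 CPM in WT luminal cells (2.20 ± 0.64, adjusted p 0.179), also without overlap. Fzd10 lay below every WT luminal library in each MMTVRANK luminal library (-1.75 ± 0.39, adjusted p 0.0851), and it fell with the replicate number as a block (-1.81, adjusted p 0.0427), where 103 genes passed in all. Sfrp2 was likewise below WT in each MMTVRANK library (-2.94 ± 0.66, adjusted p 0.0850). Wnt7b, Lrp5 and Lrp6 were below WT without overlap (-0.87 ± 0.33, -0.65 ± 0.19 and -0.34 ± 0.13, adjusted p 0.280, 0.172 and 0.325), and Znrf3 was above WT without overlap (0.55 ± 0.16, adjusted p 0.182). In all 11 of the 42 genes did not overlap between the genotypes, 6 above and 5 below WT, where 16.9% of all tested genes did not overlap (10.1% above and 6.82% below).

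Levels of other cell markers also differed between the luminal libraries. MMTVRANK luminal replicate 3, the highest luminal library for Apcdd1, Axin2, Nkd1, Nkd2, Wif1 and Rspo1, held 1150 CPM of the 20 leukocyte markers, where the remaining luminal libraries had 129 to 161 CPM. It also held 936 CPM of the 14 basal and myoepithelial markers, where the remaining luminal libraries had 315 to 600 CPM. In MMTVRANK against WT luminal cells, 13 of these 14 markers had positive log2 fold changes, with a median of 1.14, and none passed. Of 17 tested leukocyte markers, 16 were positive, with a median of 2.72, and none passed. The median over all tested genes was 0.03. Lcp1 alone, at 106 to 133 CPM, made up most of the leukocyte sum in every luminal library but MMTVRANK luminal replicate 3. Its level was 3.94 to 13.6 CPM in basal libraries and 182 CPM in MMTVRANK luminal replicate 3. No marker of either list was at 0 in all 3 libraries of a luminal group. Without that library the log2 fold changes were 2.27 for Apcdd1, 1.90 for Axin2, 2.64 for Nkd1, 1.91 for Nkd2, 1.25 for Wif1 and 2.18 for Rspo1 (adjusted p 0.123, 0.217, 0.170, 0.693, 0.651 and 0.821). Summed hormone-sensing markers (11 genes) were 1890 to 5681 CPM in MMTVRANK and 5994 to 11043 CPM in WT luminal libraries, and summed luminal progenitor markers (10 genes, 4 of which passed as lower) were 503 to 931 CPM in MMTVRANK and 1233 to 2479 CPM in WT luminal libraries. The progenitor markers disagreed, and 3 of the 10 had positive log2 fold changes. Csn3 held 12.3 to 35.6 CPM in MMTVRANK and 219 to 799 CPM in WT luminal libraries, and Lcn2 held 109 to 160 and 363 to 841 CPM. The progenitor sum was not particular to luminal cells, at 1514 to 2069 CPM in MMTVRANK basal and 1233 to 2567 CPM in WT basal libraries. Lcn2 held 1050 to 2413 CPM in basal libraries. Kit overlapped between the genotypes, at 98.5 to 221 CPM in MMTVRANK and 82.4 to 221 CPM in WT luminal libraries. Summed general luminal markers (12 genes) were 8764 to 13361 CPM in MMTVRANK and 14491 to 21639 CPM in WT luminal libraries, and summed proliferation markers (15 genes, 1 of which passed as higher) were 899 to 2042 CPM in MMTVRANK and 147 to 426 CPM in WT luminal libraries. None of these 4 luminal sums overlapped between the genotypes, while single markers varied. Of the 12 general luminal markers 2 had positive log2 fold changes, with a median of -0.63, and none passed. Ehf was higher without overlap, at 276 to 559 CPM in MMTVRANK and 118 to 194 CPM in WT luminal libraries. Of the 11 hormone-sensing markers 0 had positive log2 fold changes and none passed. Prlr, the largest of them, did not overlap (791 to 2338 and 2578 to 4710 CPM), and Foxa1 did (207 to 543 and 321 to 634 CPM). The part of these populations in the Wnt pathway values was not tested.

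Set against the mean of the 6 basal libraries, the summed basal markers in luminal libraries stood at 1.42%, 1.84% and 3.19% in MMTVRANK and 1.07%, 2.05% and 1.85% in WT. Axin2 stood at 25.9%, 9.97% and 54.6% of its basal mean in MMTVRANK and 3.42%, 5.94% and 4.59% in WT luminal libraries. Apcdd1 stood at 32.9%, 46.6% and 67.8% in MMTVRANK and 10.9%, 7.76% and 5.21% in WT luminal libraries. Both were above the summed marker level in every luminal library. Single markers of the list spread widely around their sum, which lay above 9 to 12 of the 14 in each luminal library. Their median was 0.540%, 0.681% and 1.245% in MMTVRANK and 0.126%, 0.310% and 0.560% in WT luminal libraries. Itga6, which encodes the sorted antigen CD49f, stood at 15.2%, 18.5% and 18.9% in MMTVRANK and 12%, 24.8% and 18.7% in WT luminal libraries, and Vim reached 22.4% in MMTVRANK luminal replicate 3. Nkd1 stood at 1.007%, 0.896% and 2.19% in MMTVRANK and 0.0583%, 0% and 0.346% in WT luminal libraries. Wif1 stood at 0.252%, 0.175% and 0.766% in MMTVRANK and 0.117%, 0.0692% and 0.0744% in WT luminal libraries. Nkd1 and Wif1 were below the summed marker level in every luminal library. Of the 14 single markers, 11, 9 and 8 stood below Nkd1 in the MMTVRANK and 2, 0 and 3 in the WT luminal libraries, while 3, 4 and 4 stood below Wif1 in the MMTVRANK and 7, 0 and 0 in the WT luminal libraries.

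**Figure D5:**
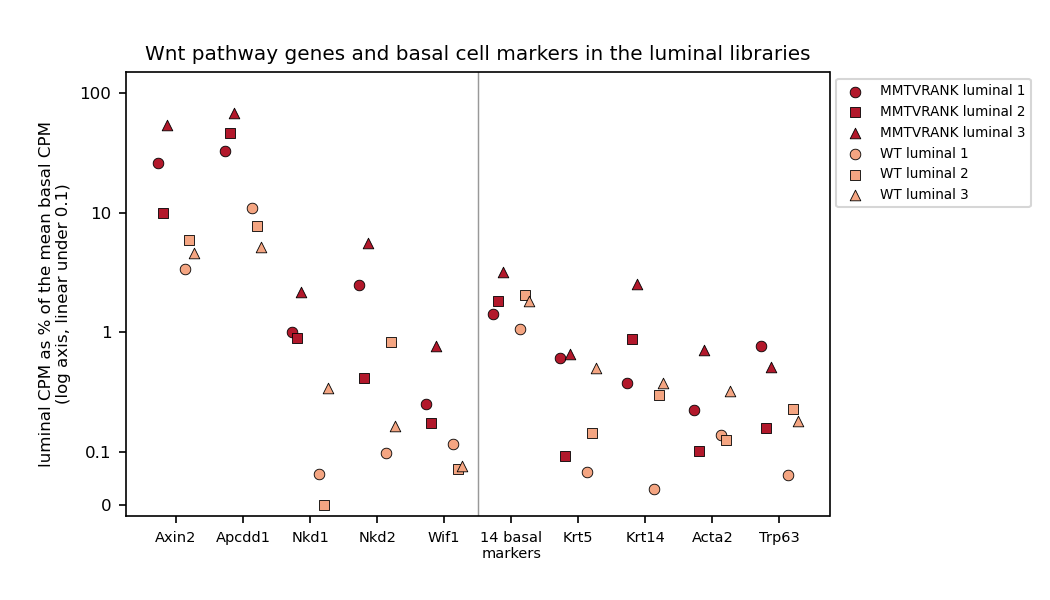
Level in each luminal library as a percentage of the mean level over the 6 basal libraries, on a log axis that is linear under 0.1. Shown are 5 Wnt pathway genes (left of the line), and the summed basal cell markers with a selection of the single ones (right). Axin2 and Apcdd1 in MMTVRANK luminal libraries (dark) lie between 9.97% and 67.8%, above the 14 summed basal markers at 1.42% to 3.19%. Of the 14 single markers, 14, 13 and 14 stood below Axin2 in MMTVRANK luminal replicates 1, 2 and 3. In replicate 2 Itga6, at 18.5%, lay above Axin2, at 9.97%.

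In basal cells none of the 42 genes passed between the genotypes in edgeR's test, where 1 gene passed in all (0.00548%). At an unadjusted p under 0.05 there were 5 Wnt pathway genes (5.41% of all tested genes), DESeq2 called 2 (Lgr5 and Wnt7b, both lower) and limma-voom 0. Lgr5 averaged 15.7 ± 2.77 CPM in MMTVRANK and 46.6 ± 19.2 CPM in WT basal cells (-1.57 ± 0.31, adjusted p 0.391). Wnt7b averaged 1.94 ± 0.372 CPM in MMTVRANK and 6.61 ± 3.84 CPM in WT basal cells (-1.77 ± 0.37, adjusted p 0.432). Neither gene overlapped between the genotypes. Lgr5 passed without the library labelled WT basal replicate 2 (-1.85, adjusted p 0.0359). Without both libraries labelled WT replicate 2 the log2 fold changes were -1.85 for Lgr5 and -1.18 for Wnt7b (adjusted p 0.0694 and 0.440).

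Wnt11, Wnt10b and Procr were also below WT, and Lgr4 and Lgr6 above WT, in every MMTVRANK basal library. That makes 7 of 42 genes without overlap, 2 above and 5 below WT, where 11.1% of all tested genes did not overlap (6.60% above and 4.52% below). Wnt11 averaged 5.6 ± 0.909 CPM in MMTVRANK and 13.8 ± 1.49 CPM in WT basal cells (-1.29 ± 0.53, adjusted p 0.869). Lgr4 averaged 229 ± 33.4 CPM in MMTVRANK and 166 ± 15.6 CPM in WT basal cells (0.47 ± 0.17, adjusted p 0.841). Axin2 averaged 27.9 ± 7.83 CPM in MMTVRANK and 24.7 ± 10.5 CPM in WT basal cells, and the genotypes overlapped. The median log2 fold change of the 42 genes was -0.05 in basal cells, against 0.00 over all tested genes.

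Whether the genotype effect differed between luminal and basal cells was tested directly. None of the 42 genes passed in edgeR's test, where 1 gene passed in all (0.00548%). At an unadjusted p under 0.05 there were 9 (7.73% of all tested genes), DESeq2 called 2 (Apcdd1 and Nkd1) and limma-voom 0. Apcdd1 had the smallest p, with a difference of 3.28 ± 0.61 on the log2 scale (adjusted p 0.229), followed by Nkd1 (2.86 ± 0.74, 0.412), Lgr5 (1.498 ± 0.43, 0.438) and Axin2 (2.52 ± 0.74, 0.447). These values are luminal minus basal, so the positive sign means a higher genotype effect in luminal cells. The same contrast compares the luminal against basal effects of the genotypes, so calls in one genotype alone, such as Apcdd1, Lgr5, Procr and Fzd10 in WT and Lrp6 and Sfrp2 in MMTVRANK, were not shown to differ between the genotypes.

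Among the rest of the pathway, 4 lists outside the rule were described by counts. In luminal cells of MMTVRANK against WT mice, 0 of 38 genes of Wnt secretion and the signalling core passed, 0 of 17 of the non-canonical receptors and planar polarity, 1 of 23 further extracellular and membrane modulators and 1 of 19 other reported targets, where 0.252% of all tested genes passed. In basal cells 0 genes of these lists passed between the genotypes in edgeR's test, and 2 genes of non-canonical reception and 2 modulators had an unadjusted p under 0.05, which 5.41% of all tested genes had. The modulator was Shisa2, of a family known from the frog to retain Frizzled receptors inside the cell, at 46.0, 45.1 and 90.04 CPM in MMTVRANK and 14.1, 24.5 and 20.5 CPM in WT luminal libraries (1.61 ± 0.29, adjusted p 0.0457). The target was Ephb2, an ephrin receptor, at 4.22, 6.33 and 14.5 CPM in MMTVRANK and 0.150, 0.780 and 0.889 CPM in WT luminal libraries (3.74 ± 0.65, adjusted p 0.0457). Both rose, and MMTVRANK replicate 3 was the highest luminal library for each. The Ephb2 call was lost without any 1 library other than MMTVRANK luminal replicate 1 or WT basal replicate 3 (3.05 to 4.08, adjusted p 0.0504 to 0.128). For Shisa2 the same held for any 1 library other than MMTVRANK luminal replicate 1 or 2 or WT basal replicate 3 (1.17 to 1.80, 0.0504 to 0.130). Without both libraries labelled WT replicate 2 neither passed, at 3.94 for Ephb2 (adjusted p 0.0917) and 1.80 for Shisa2 (0.0613). Tnfrsf19 stood at 18.5, 16.4 and 48.7 CPM in MMTVRANK and 3.29, 7.87 and 3.18 CPM in WT luminal libraries (2.54 ± 0.68, adjusted p 0.147). Wisp2 went the other way, at 0.681, 0.128 and 0.117 CPM in MMTVRANK and 3.82, 2.84 and 7.81 CPM in WT luminal libraries (-3.95 ± 1.22, adjusted p 0.192). Of the 19 other targets, 12 had positive log2 fold changes in this comparison, with a median of 0.20 against 0.03 over all tested genes.

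Between the populations, 33.2% of all tested genes passed in MMTVRANK and 38.1% in WT cells. Of the 38 core genes 6 were higher and 9 lower in luminal cells of MMTVRANK and 8 higher and 7 lower in WT, a share close to that of all genes. Of the 17 non-canonical receptors and planar polarity genes, 2 were higher and 10 lower in MMTVRANK luminal cells, and 1 higher and 10 lower in WT luminal cells. Tcf7l1, a mostly repressive TCF factor, stood at 7.56, 12.2 and 10.04 CPM in WT luminal and 119, 121 and 99.8 CPM in WT basal libraries. Apc, a scaffold of the destruction complex, stood at 757, 519 and 560 CPM in WT luminal and 195, 204 and 220 CPM in WT basal libraries. The 2 genes lie on opposite sides. Of the 19 other targets, 3 were higher and 9 lower in MMTVRANK luminal cells, and 3 higher and 12 lower in WT luminal cells. Myc was lower in luminal cells (-2.16 ± 0.20 in MMTVRANK and -2.51 ± 0.20 in WT), and Sox9 was higher (1.60 ± 0.24 in MMTVRANK and 1.89 ± 0.24 in WT). Of the 23 modulators 4 were higher and 15 lower in MMTVRANK luminal cells, and 2 higher and 15 lower in WT luminal cells.

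The 15 genes with too few counts to test were Rspo2, Rspo3, Rspo4, Dkk1, Dkk2, Dkk4, Notum, Wnt1, Wnt2, Wnt3, Wnt3a, Wnt7a, Wnt8a, Wnt8b and Wnt9b, with 8 to 139 counts each over all 12 libraries. Notum, an enzyme that removes the lipid from Wnt proteins, had 8 counts in MMTVRANK luminal, 0 in WT luminal, 1 in MMTVRANK basal and 11 in WT basal cells, all 11 in replicate 1. The 0 counts over the WT luminal libraries allow up to 0.0694 CPM (3 counts over the group, counting error only). Wnt3 had 121 of its 139 counts in the library labelled WT basal replicate 2, and Dkk2 had 53 of its 74 in WT basal replicate 1, so most counts of each came from 1 library. Wnt2 had no count in any luminal library, 7 counts in MMTVRANK basal and 32 in WT basal cells.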

How the data were processed

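Luminal and basal mammary epithelial cells were sorted from MMTVRANK and WT mice and libraries came from a low-input kit that keeps strand, per the labels' protocols. STAR 2.6.1b, Subread 1.5 and the build GRCm38.p6 are named, with no order, per the submitters' processing notes. The deposited values are raw counts per gene symbol, made by the authors with featureCounts 1.5.2, per the file headers. That command counted without strand, so genes that overlap on opposite strands share reads that cannot be separated. This touches 8 tested genes (Axin2, Fzd5, Fzd6, Lef1, Sfrp2, Wnt11, Wnt5a and Wnt7b), whose partners had at most 7.50 CPM. The deposited exon length column served for RPKM.

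Total counts of 12459547 to 15069578 set the precision. No sample column was left unused (0), and no 2 of the 12 libraries (66 pairs) agreed within sampling noise, the lowest ratio of chi-square to degrees of freedom being 25.5. Genes were kept by filterByExpr of edgeR 4.0.16 (count minimum 10, CPM 0.728), scaled by TMM (0.864 to 1.19) and fitted in 1 quasi-likelihood model over 4 groups in R 4.3.3 (common biological coefficient of variation 0.450). All adjusted p are from that test with Benjamini-Hochberg adjustment over 18236 genes, threshold 0.05. Standard errors (SE) were taken from the fold change and its F statistic. Groups follow the titles. Alternatives were RLE and upper-quartile scaling, other filters, DESeq2 1.42.0, limma 3.58.1 (voom), a replicate block, the compared groups alone, and leaving out libraries. The scripts were tested on simulated data.

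Replicate numbers were read as pairing libraries on the data alone: deviations of same-numbered libraries (10082 genes) correlated at 0.525, 0.125 and 0.392 between luminal genotypes, 0.278, 0.144 and 0.199 between MMTVRANK populations, and 0.277, 0.168 and 0.343 between WT populations. Between basal genotypes they were 0.404, -0.0706 and 0.0915, so these were not read as paired. There MMTVRANK basal replicate 2 correlated at 0.311 with WT basal replicate 3. The main test did not use the pairing, which is a limit of its p-values. Results with the replicate number as a block are given as an alternative.

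The genes, lists, tests and alternatives were chosen with earlier results of these data known. Values per library are given for genes past the threshold in any comparison, the 2 with the smallest p in each genotype comparison, and Axin2, Nkd1, Apcdd1, Lgr5, Lgr6, Procr, Wnt4, Rspo1, Wnt6, Wnt10a and Notum. Of each other list up to 4 genes with the smallest p in a comparison could be named. Promoter windows are from RefSeq (GRCm38.p6).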

Additional observations from a re-analysis of the deposited data

How the results depend on the processing

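The luminal against basal counts kept within 1.5 times of the reported ones under every alternative run, with 23 to 31 Wnt pathway genes called in MMTVRANK and 29 to 36 in WT cells, and none of those calls changed sign. Among all 42 tested genes, 6 in MMTVRANK and 2 in WT cells changed sign under at least 1 alternative, none of them called. Of the 28 calls in MMTVRANK, 21 held throughout, and of the 33 in WT, 29. Without both libraries labelled WT replicate 2, 29 genes were called in each genotype, and in WT cells Fzd9 (-2.75, adjusted p 0.182), Rspo1 (3.58, 0.104), Sfrp4 (-5.16, 0.0734) and Wnt9a (-4.14, 0.0631) were not among them. The genotype counts depend on the processing, and the cause was not tested. In luminal cells 1 Wnt pathway gene was called, against 13 with no filter on low counts, 8 with DESeq2, 2 with the replicate block, and 0 with limma-voom, with the compared groups alone, or without both libraries labelled WT replicate 2. Over all genes the count of 46 was 1353 with no filter, 800 with DESeq2, 103 with the block, 7 with the compared groups alone and 81 without that WT pair. In basal cells 0 Wnt pathway genes were called, against 4 with no filter and 2 with DESeq2, and the 1 gene called overall was 349 with no filter, 56 with DESeq2, 4 without the WT pair, and 0 with limma-voom or the compared groups alone. For the difference of effects, 0 became 9 with no filter and 2 with DESeq2, and 1 gene overall became 776 with no filter, 130 with DESeq2, 3 without the WT pair, and 0 with a count minimum of 30, the block or limma-voom. Leaving out 1 library at a time gave 0 to 1 Wnt pathway genes and 3 to 93 genes in luminal cells, 0 to 1 and 0 to 8 in basal cells, and 0 and 0 to 7 for the difference. The replicate block changed no other call than those given beside their genes. Nkd1, Nkd2, Wif1 and Apcdd1 had low counts in luminal cells and each group held 3 libraries; how much of their error comes from depth was not tested.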
